A study of Mus musculus with 768 samples.

Results

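The genes of MHC class I antigen presentation were examined in NK cells that had infiltrated MTAP1A tumors of WT and PD-1-/- mice. The 10 genes were taken by symbol: the class I heavy chains H2-K1 and H2-D1, the light chain B2m, the peptide transporter subunits Tap1 and Tap2, the loading factor Tapbp, the class I transactivator Nlrc5, and the immunoproteasome subunits Psmb8, Psmb9 and Psmb10. Each of the 10 symbols stood on 1 of the 24490 deposited gene entries, of which 14761 were above 0 in at least 3 wells. SMART-SEQ2, which reads full-length transcripts without molecular identifiers, was run on 768 wells, 1 plate per genotype. The values are RPKM, reads scaled to gene length and to the mapped reads of the cell, so that levels can be compared between genes per length. Wells with 1000 to 3500 detected genes were kept, 726 in all, of which 360 were WT and the others PD-1-/-. A gene was counted as found in a cell at an RPKM above 0.

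WT cells came from C57BL/6 mice and PD-1-/- cells from C57BL/6 mice with a germline deletion in Pdcd1, the gene of PD-1. Both carried the MTAP1A tumor, a fibrosarcoma line from a Tap1-deficient mouse, while the NK cells belong to hosts with an intact Tap1. Viable NK1.1+ cells without surface CD3 and other lineage markers had been sorted from the pooled tumors of 3 mice per genotype, and nothing ties a cell to its mouse. Each genotype is therefore 1 pool on 1 plate, and genotype and plate cannot be told apart. Cells of a pool are not replicates, so no test between genotypes was made and no difference below has a replicate error. Intervals are exact binomial 95% intervals (Clopper-Pearson) and cover counting error alone.

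Class I molecules present peptides of the cell's own proteins at its surface, where they are read by CD8 T cells and by the inhibitory Ly49 and NKG2A receptors of NK cells. Peptides are cut by the proteasome, in lymphocytes largely by the immunoproteasome, whose subunits Psmb8 (LMP7), Psmb9 (LMP2) and Psmb10 take the place of Psmb5, Psmb6 and Psmb7. The transporter formed by Tap1 and Tap2 carries peptides into the endoplasmic reticulum, and tapasin, the product of Tapbp, holds the transporter to class I molecules while they are loaded. Nlrc5 drives transcription of most of these genes through a conserved promoter module, and interferons raise them, in part through Irf1. NK cells carry class I molecules themselves, and in the C57BL/6 strain H2-K1 and H2-D1 are the classical heavy chain genes.

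Of the 10 genes, 7 lie on chromosome 17, among them H2-K1 (33996012 to 34000619) and Tapbp (33919478 to 33929290), and B2m lies on chromosome 2 (positions 122147687 to 122153082, RefSeq on GRCm38.p6), while Nlrc5 (94434335 to 94527272) and Psmb10 (105935728 to 105938392) lie on chromosome 8. Tap1 (34187556 to 34197225) and Psmb9 (34182030 to 34187330) are neighbours transcribed away from each other, and Psmb8 (34198195 to 34201454) and Tap2 (34204479 to 34216321) follow on the same stretch. Promoter windows of RefSeq (GRCm38.p6), of which the 250 bases before the start were searched, were at hand for 8 of the 10 genes, and Nlrc5 and Tap2 had none. RefSeq gives H2-K1 (minus strand) a pair of start windows, and its gene interval reaches farther upstream than both, so the window searched here may lie inside a longer transcript and is not printed whole. It shares 3 exact runs of at least 20 bases, of 21, 47 and 40 bases and 43.2% of the window in all, with the window of H2-D1 (chromosome 17, 35263094 to 35267497, plus strand).

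The B2m window (chr2:122147437-122147685, plus strand) is shown as that of the light chain, a gene of another chromosome. Capitals mark an interferon response element, searched as GAAANNGAA on either strand, and a CCAAT box on the other strand.

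B2m: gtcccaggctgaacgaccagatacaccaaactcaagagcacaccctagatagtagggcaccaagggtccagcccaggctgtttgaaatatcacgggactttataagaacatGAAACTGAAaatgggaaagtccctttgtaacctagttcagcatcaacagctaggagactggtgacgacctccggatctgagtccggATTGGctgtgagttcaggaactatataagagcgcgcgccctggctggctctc

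Within the shared runs, both heavy chain genes hold GGGATTCCC, the core of the class I enhancer that NF-kB proteins bind, and TTTCACTTC, which is GAANNGAAA on the other strand, the letters of an interferon response element with 1 A fewer. These sites are shown with their neighbouring bases, the motif in capitals, for H2-K1 (chr17:34000438-34000467 and chr17:34000418-34000447, minus strand) and H2-D1 (chr17:35262914-35262943 and chr17:35262934-35262963, plus strand), followed by the GAS element (TTCNNNGAA, the gamma-activated sequence of interferon-induced genes) of Psmb8 (chr17:34198088-34198117, plus strand).

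H2-K1 enhancer: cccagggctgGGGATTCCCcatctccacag
H2-D1 enhancer: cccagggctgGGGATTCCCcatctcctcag
H2-K1 response element: atctccacagTTTCACTTCtgcacctaacc
H2-D1 response element: atctcctcagTTTCACTTCtgcacctaacc
Psmb8 GAS: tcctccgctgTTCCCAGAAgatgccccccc

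Among all 32851 promoter windows of this length, 0.301% hold GGGATTCCC, 6.31% hold GAANNGAAA, 7.13% hold GAAANNGAA, 7.02% hold TTCNNNGAA and 33.8% hold CCAAT, each on either strand, and GAANNGAAA and GAAANNGAA can overlap. Of the 8 genes with a window, 6 held CCAAT: H2-K1, H2-D1, B2m, Tap1, Tapbp and Psmb9. TGACG, the core letters of the X2 box in the module that Nlrc5 acts on, stood in 17.8% of all windows and in those of H2-K1, H2-D1, B2m, Tap1 and Psmb9. The windows of Tap1 and Psmb9 overlap, and each of these motifs in them is 1 site counted for both genes. The Psmb10 window held none of these motifs. A match is a description of the letters and not a binding site.

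The sorted cells had the transcripts of NK cells. Each of the 8 NK markers, such as Ncr1 and Klrb1c, stood in 61.9% or more of the WT and 55.2% or more of the PD-1-/- cells. No T cell marker passed 16.9%, no class II or myeloid marker passed 14.2%, and no fibrosarcoma, B cell or neutrophil marker passed 2.78% on either plate. Despite the gate, 65 WT and 83 PD-1-/- cells had reads of a CD3 chain gene (Cd3d, Cd3e, Cd3g). Pdcd1 was above 0 in 9 WT cells, a share of 2.50% (1.15 to 4.69), and in 47 PD-1-/- cells, a share of 12.8% (9.59 to 16.7). The deletion leaves part of the gene in place and RPKM covers the whole gene, so these reads do not check the labels. Whole reads recovered from the RPKM steps had a median of 385280 per cell (1759 to 580703) on the WT plate and 410776 (2142 to 698370) on the PD-1-/- plate.

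Per length, the transcripts of the class I heavy and light chains were among the most abundant of these cells. B2m, the light chain that every classical class I molecule needs, was found in all 726 cells. Its RPKM ranged from 3536 to 44074 in WT cells with a median of 9330, and from 2933 to 26105 in PD-1-/- cells with a median of 9251. By mean level it ranked 2 among all genes in WT (9755 RPKM) and 3 in PD-1-/- cells (9532 RPKM). The plates overlapped but for the highest WT cells, and no kept cell was without B2m.

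In RPKM, the heavy chains stood at about the same level as each other. Their recovered reads differed, with a median in cells with the gene of 2693 for H2-K1 and 1061 for H2-D1 in WT. In PD-1-/- cells these medians were 2845 and 1146. The level in RPKM thus depends on the counted lengths given below. H2-K1 was found in all but 1 WT cell (99.7%, 98.5 to 99.99) and all but 1 PD-1-/- cell (99.7%, 98.5 to 99.99). Its RPKM had a lowest value of 0, a median of 5185 and a highest of 13403 on the WT plate, and 0, 5102 and 10633 on the PD-1-/- plate. H2-D1 was found in all but 3 WT cells (99.2%, 97.6 to 99.8) and all but 1 PD-1-/- cell, with 0, 5036 and 11471 RPKM on the WT plate and 0, 5037 and 12087 RPKM on the other. For either gene the cells of both plates covered the same range but for a few at the top. H2-K1 and H2-D1 ranked 8 and 9 among all genes in WT and 9 and 8 in PD-1-/- cells. Transcripts of both heavy chains were missing in 1 WT cell of 1759 and 1 PD-1-/- cell of 2611 recovered reads, and H2-D1 alone in 2 WT cells of 2064 and 5695 reads. These cells were shallow, so no absence can be shown in them. All 4 had B2m, and the 3 WT cells lay in plate row B.

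Cell by cell, the ratio of H2-K1 to H2-D1 had a median of 1.01 in WT cells (quartiles 0.821 and 1.35) and 0.990 in PD-1-/- cells (0.740 and 1.28). Where both were found, H2-K1 was the higher of the pair in 51.3% of the WT and 48.2% of the PD-1-/- cells. Either heavy chain lay below B2m in most cells: H2-K1 exceeded B2m in 24 WT and 22 PD-1-/- cells, and H2-D1 did in 23 of each plate. Together these 3 genes made up a median of 3.51% of the summed RPKM of a WT cell (1.24 to 6.67) and 3.61% of that of a PD-1-/- cell (0.580 to 6.75). The step of 1 read corresponds to a counted length of about 1649 bases for H2-K1, 860 for B2m and 677 for H2-D1. These lengths are estimates, scaled on 1132 genes with 1 annotated transcript, of which 65.3% came within 10% of its length. The longest annotated transcript of H2-D1 has 2102 bases, so the H2-D1 level may rest on part of the gene. For Psmb9 the counted length was 808 bases, and the longest of its 7 annotated transcripts has 2884. Which transcript was counted is not known. Of the different 50-base stretches of their transcripts, 9.63% for H2-K1 and 12.8% for H2-D1 also occur in another gene, most often H2-Q10 and H2-Q1, and reads from these stretches cannot be assigned for certain.

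H2-K1, H2-D1 and B2m varied little over cells. The coefficient of variation (SD over mean, over cells of 1 pool) was 0.392, 0.375 and 0.393 in WT cells and 0.373, 0.345 and 0.358 in PD-1-/- cells. The median of all 933 genes whose mean reached 100 RPKM was 1.249 in WT and 1.26 in PD-1-/- cells, and that of the 54 genes whose mean reached 1000 RPKM, nearer in level, was 0.566 and 0.586. In WT cells 1 of these 933 genes was more even than H2-D1, 3 were more even than H2-K1 and 4 more even than B2m, and in PD-1-/- cells the numbers were 0, 3 and 1. The 7 other genes made up a median of 0.324% of the summed RPKM of a WT cell and 0.338% of that of a PD-1-/- cell.

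**Figure D1:**
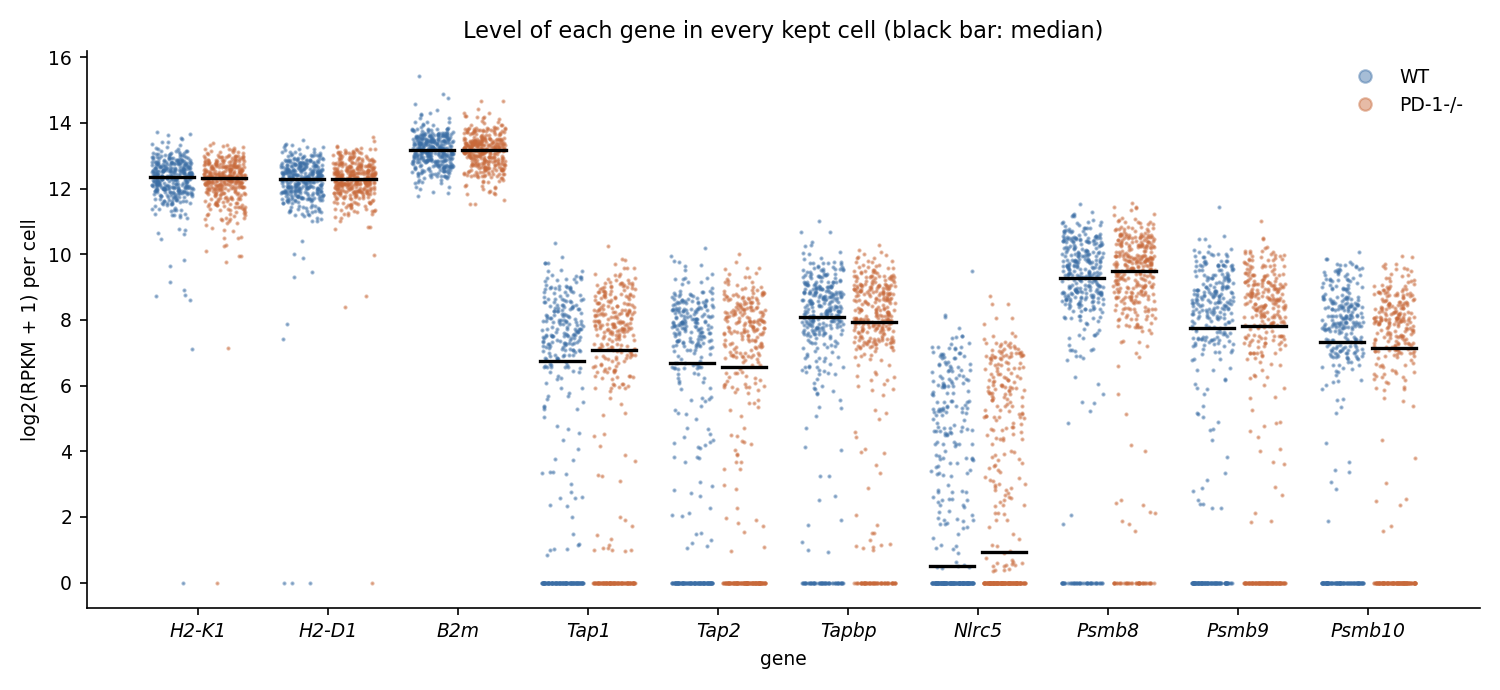
Level of each gene as log2(RPKM + 1) in every kept cell of the WT (blue) and PD-1-/- (orange) plate, with the median as a black bar. B2m, H2-K1 and H2-D1 form narrow bands far above the other genes, whose cells spread down to 0 on both plates.

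The peptide transporter was found in fewer cells. For Tap1 the share of cells was 65.6% (60.4 to 70.5) in WT and 70.2% (65.2 to 74.9) in PD-1-/-, with a lowest value of 0, a median of 106.2 and a highest of 1288 RPKM on the WT plate and 0, 133.5 and 1206 RPKM on the PD-1-/- plate. For Tap2 the share was 67.2% (62.1 to 72.1) in WT and 64.2% (59.1 to 69.1) in PD-1-/-, with 0, 102.3 and 1176 RPKM on the WT plate and 0, 93.6 and 1039 RPKM on the other. Cells at 0 and cells near the top stood on both plates, and the ranges overlapped almost entirely. For Tapbp the share was 84.4% (80.3 to 88.03) in WT and 83.3% (79.1 to 87) in PD-1-/-, with 0, 271.03 and 2056 RPKM on the WT plate and 0, 245.7 and 1242 RPKM on the other. Per length, the tapasin gene had a mean of 319.15 RPKM in WT and 290.4 RPKM in PD-1-/- cells, above Tap1 at 160.4 and 183.3 RPKM and Tap2 at 159.1 and 153.98 RPKM.

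Transcripts of both transporter subunits were found together in 48.6% of WT cells (43.3 to 53.9) and 47.3% of PD-1-/- cells (42.1 to 52.5). Neither was found in 57 WT cells (15.8%, 12.2 to 20.02) and 47 PD-1-/- cells (12.8%, 9.59 to 16.7). If the genes were found independently of each other, their shares would give 44.1% in WT and 45.1% in PD-1-/- with both. Tap1, Tap2 and Tapbp were all found in 44.4% and 41.5% of cells, and none of them in 16 WT and 13 PD-1-/- cells. Tap1 was backed by 10 or more recovered reads in 58.9% of the WT and 65.8% of the PD-1-/- cells, and rested on 1 or 2 reads in 10 WT and 11 PD-1-/- cells.

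The immunoproteasome subunits differed in how widely they were found. For Psmb8 the share of cells was 87.5% (83.6 to 90.7) in WT and 89.6% (86.03 to 92.5) in PD-1-/-, with a lowest value of 0, a median of 619.9 and a highest of 2936 RPKM on the WT plate and 0, 713.5 and 3034 RPKM on the PD-1-/- plate. For Psmb9 the share was 69.2% (64.1 to 73.9) in WT and 69.7% (64.7 to 74.3) in PD-1-/-, with 0, 213.03 and 2781 RPKM on the WT plate and 0, 222.8 and 2054 RPKM on the other. For Psmb10 the share was 68.9% (63.8 to 73.6) in WT and 65.3% (60.2 to 70.2) in PD-1-/-, with 0, 160.5 and 1076 RPKM on the WT plate and 0, 141.5 and 991.7 RPKM on the other. Again the plates overlapped almost entirely for each gene. All 3 subunits were found in 170 WT cells (47.2%), and their share in PD-1-/- was 45.6%. None of them was found in 14 WT and 10 PD-1-/- cells.

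Against the constitutive subunits that they replace, the immunosubunits were at the higher mean level per length. The mean of Psmb8 was 11.6 times that of Psmb5 on both plates, 721.2 and 62.3 RPKM in WT and 779 and 67.4 RPKM in PD-1-/- cells. Psmb8 exceeded Psmb5 in 85.8% of the WT and 87.4% of the PD-1-/- cells. The mean of Psmb9 was 1.34 times that of Psmb6 in WT cells, 295.6 and 220.98 RPKM, and 1.71 times in PD-1-/- cells, 293.7 and 171.6 RPKM. Within a cell, Psmb9 was the higher of the pair in 48.1% of the WT and 55.2% of the PD-1-/- cells. The mean of Psmb10 was 1.84 times that of Psmb7 in WT cells, 210.5 and 114.4 RPKM, and 1.70 times in PD-1-/- cells, 182.8 and 107.7 RPKM. The constitutive subunits had the smaller shares of cells: for Psmb5 54.2% in WT and 57.7% in PD-1-/-, for Psmb6 66.7% and 60.7%, and for Psmb7 41.9% and 42.9%.

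Nlrc5, the transactivator, had the lowest level of the 10 genes. Its share of cells was 51.1% (45.8 to 56.4) in WT and 54.1% (48.8 to 59.3) in PD-1-/-, with a mean of 27.6 and 34.8 RPKM. Its values ran from 0 over a median of 0.425 to 721.9 RPKM on the WT plate and from 0 over 0.896 to 421.7 RPKM on the PD-1-/- plate, so the plates overlapped but for the highest WT cells. It was backed by 10 or more recovered reads in 41.9% of the WT and 45.6% of the PD-1-/- cells. By mean level it ranked 3364 among all genes in WT and 2787 in PD-1-/- cells, against 83 and 72 for Psmb8.

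The order of mean RPKM was nearly the same on both plates. It ran B2m, H2-K1, H2-D1, Psmb8, Tapbp, Psmb9, Psmb10, Tap1, Tap2 and Nlrc5 in WT cells. In PD-1-/- cells H2-D1 (5225 RPKM) stood above H2-K1 (5117), Psmb9 (293.7) above Tapbp (290.4), and Tap1 (183.3) above Psmb10 (182.8). With 1 pool each, these exchanges of neighbours have no spread over samples against which they could be judged.

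The other genes of the pathway were taken from a list of 20. The share of cells with Psme1, a proteasome activator subunit, was 89.7% in WT and 87.7% in PD-1-/- (mean 601.8 and 531.03 RPKM). For H2-T23, the non-classical heavy chain gene whose product Qa-1 is the ligand of NKG2A, it was 86.1% and 86.6% (mean 292.9 and 292.8 RPKM). For Pdia3, an oxidoreductase of the loading complex, it was 80.6% and 81.7% (mean 305.2 and 348.1 RPKM). The median share over the list was 30.1% of all kept cells, and the subunits of the factor that works with Nlrc5, Rfx5, Rfxap and Rfxank, were found in 10.9%, 6.89% and 23.1%. H2-Q6 and H2-Q7 were listed at 0 in every kept cell, where a count of 0, with the limit taken as 3 cells of the plate, allows a share of up to 0.833% in WT and 0.820% in PD-1-/-. Of their 50-base stretches, 32% and 26.4% also occur in another gene. H2-T22 and H2-T10, with 34.5% and 32.9%, were still found in 21.1% and 24.2% of cells. What the value of 0 rests on was not tested, and it does not show that the H2-Q6 and H2-Q7 transcripts were absent.

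The genotypes were compared to ask whether NK cells without PD-1 carried the presentation genes at another level. Of the 10 genes, 0 differed by 1.5-fold in mean RPKM, where 25% of the 12030 compared genes, those whose mean reached 1 RPKM on either plate, did. Of these, 11% of all compared genes were at least 1.5-fold higher in PD-1-/- cells and 14% at least 1.5-fold lower. The log2 ratio of PD-1-/- over WT, on means plus a pseudocount of 1 RPKM, had a median of -0.02 over the 10 genes and of -0.03 over all compared genes. Most genes past 1.5-fold are of low level: among the 933 genes whose mean reached 100 RPKM, which hold 9 of the 10 genes here, 18 or 1.93% were past it, with a median absolute log2 ratio of 0.13. The intervals of the share of cells overlapped between the plates for all 10 genes, and did not overlap for 1.16% of all compared genes.

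By role, the log2 ratios were -0.06 for H2-K1, 0.03 for H2-D1 and -0.03 for B2m, 0.19 for Tap1, -0.05 for Tap2 and -0.14 for Tapbp, and 0.11 for Psmb8, -0.01 for Psmb9 and -0.20 for Psmb10. Nlrc5 had the largest ratio, 0.33. It was the 1 gene of 10 past a lower limit of 0.32 in either direction, as were 45.6% of all compared genes. Blocks of plate rows showed how far these values moved between cells of the same pools. The blocks are not replicates and give no error for a ratio between genotypes. In rows A to H the ratio of Nlrc5 was 0.44 and in rows I to P 0.22, that of Tap1 was 0.33 and 0.06, and that of Psmb10 was -0.08 and -0.30. For H2-D1, B2m, Tap2, Tapbp and Psmb9 the sign differed between these blocks of rows. Leaving out the cells with CD3 chain reads, Nlrc5 stood at 0.51, Tap1 at 0.19 and Psmb10 at -0.21.

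**Figure D2:**
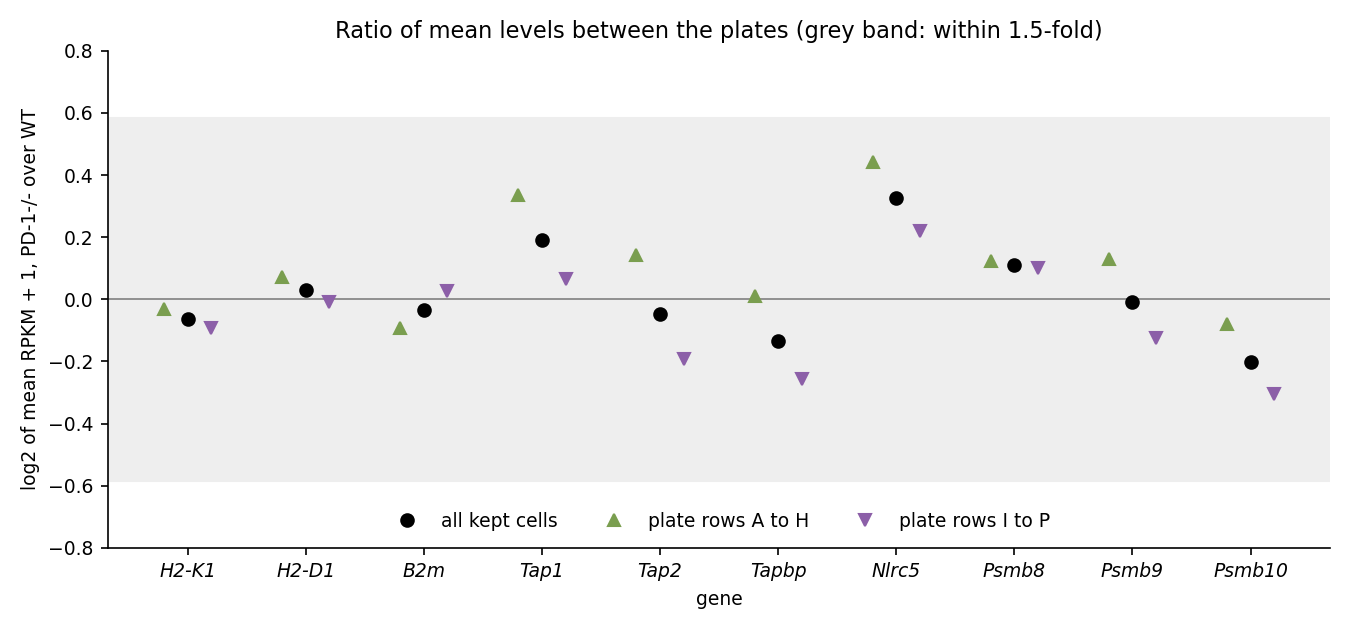
Log2 ratio of mean RPKM (pseudocount 1), PD-1-/- over WT, for each gene in all kept cells (circles), plate rows A to H (triangles up) and rows I to P (triangles down). All values lie inside the grey band of 1.5-fold, and for 5 genes the sign differs between the row blocks.

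Among the constitutive subunits, the log2 ratio was 0.11 for Psmb5, -0.36 for Psmb6 and -0.09 for Psmb7. Of the 18 other pathway genes that were compared, 0 were past 1.5-fold, with ratios from -0.45 for Rfxank, a subunit of the factor that works with Nlrc5, to 0.53 for the lipid-presenting Cd1d1, and a median of -0.0043. H2-T23 had a ratio of -0.00063.

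How many of the 10 genes a single cell held was similar on both plates. The median was 8 in WT and in PD-1-/- cells, with quartiles of 7 and 9 and a range of 2 to 10 on either plate. All 10 were found in 55 WT cells (15.3%, 11.7 to 19.4) and 54 PD-1-/- cells (14.8%, 11.3 to 18.8), and 5 or fewer in 26 cells of each plate. The number moved with the number of detected genes, with a Spearman rho over cells of 0.55 in WT and 0.59 in PD-1-/- cells. When all kept cells were split into 3 equal sets by detected genes, at 2030 and 2490 genes, the median number was 7, 8 and 9 on both plates from the lowest to the highest set, and the share of cells with all 10 genes was 2.65%, 15% and 27.5% in WT and 1.55%, 16.5% and 27.05% in PD-1-/-. With recovered reads, rho was lower, 0.27 in WT and 0.11 in PD-1-/- cells. After thinning each cell to 100000 recovered reads the median stayed at 8 on both plates.

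**Figure D3:**
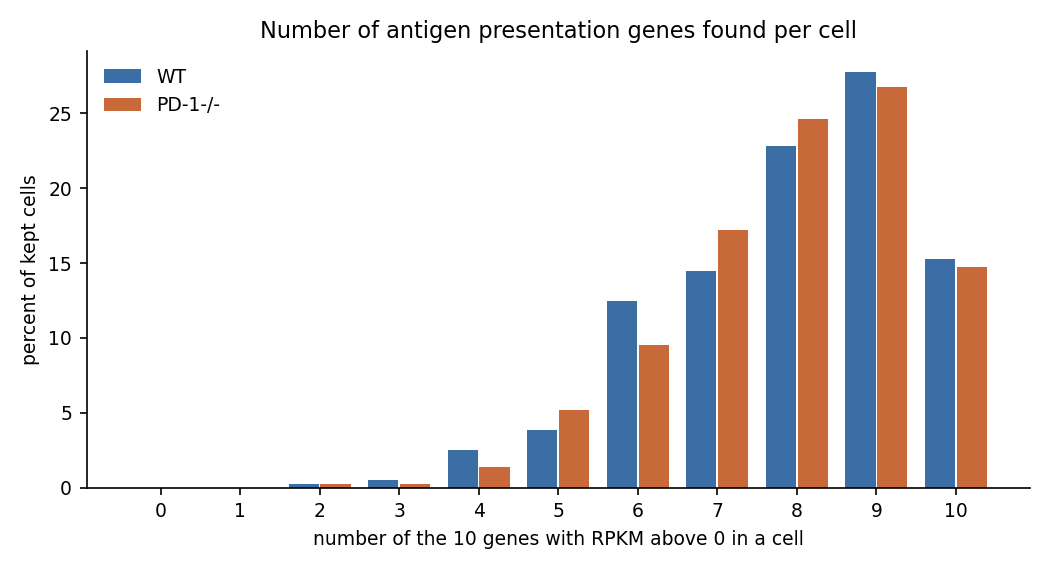
Percent of kept WT (blue) and PD-1-/- (orange) cells by the number of the 10 genes with RPKM above 0. On both plates 9 genes is the most frequent number, with 27.8% in WT and 26.8% in PD-1-/-.

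Coordination between the genes was examined over the cells of each plate as a partial Spearman correlation given the number of detected genes, and rho values are averaged over both plates unless both are given. These are descriptions over cells that share a pool, a plate and their depth, without a p. The heavy chain and light chain genes moved together: rho was 0.36 for H2-K1 with H2-D1 (0.40 in WT and 0.32 in PD-1-/- cells), 0.31 for H2-K1 with B2m (0.24 and 0.37) and 0.27 for H2-D1 with B2m (0.22 and 0.32). The other 42 pairs had a median of 0.06, with a range from -0.03 to 0.18. Over all 45 pairs the median was 0.06 and 14 pairs, 31.1%, reached 0.1. The 537166 pairs among the 1037 genes found in at least 50% of cells had a median of 0.01 and 3.39% of pairs at 0.1 or more. Most of the 14 pairs held H2-K1 or H2-D1, which were found in nearly all cells. Among pairs without these genes, Nlrc5 with Psmb8 and Psmb8 with Psmb9 alone reached 0.1. The shares thus compare pairs unlike in detection and do not show coordination of the whole set.

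Of the remaining pairs, the largest values were 0.18 for H2-K1 with Tap1, 0.15 for H2-K1 with Psmb9, 0.14 for H2-D1 with Psmb9 and 0.13 for Nlrc5 with Psmb8. Among genes whose products work as a complex, values ranged from those of the heavy chains with B2m to near 0. Psmb8 and Psmb9 had a rho of 0.14 in WT and 0.11 in PD-1-/- cells, and Psmb8 and Psmb10 of 0.06 and 0.03. Tap1 and Tap2 had a rho of 0.08 in WT and -0.03 in PD-1-/- cells, Tap1 and Tapbp of 0.00 and 0.07, Tap2 and Tapbp of 0.13 and -0.02, and Psmb9 and Psmb10 of 0.05 and 0.00. Tap1 and Psmb9, which share a promoter interval, had a rho of 0.02 in WT and 0.09 in PD-1-/- cells. Weak values like these, between genes not found in part of the cells, are no finding in either direction.

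**Figure D4:**
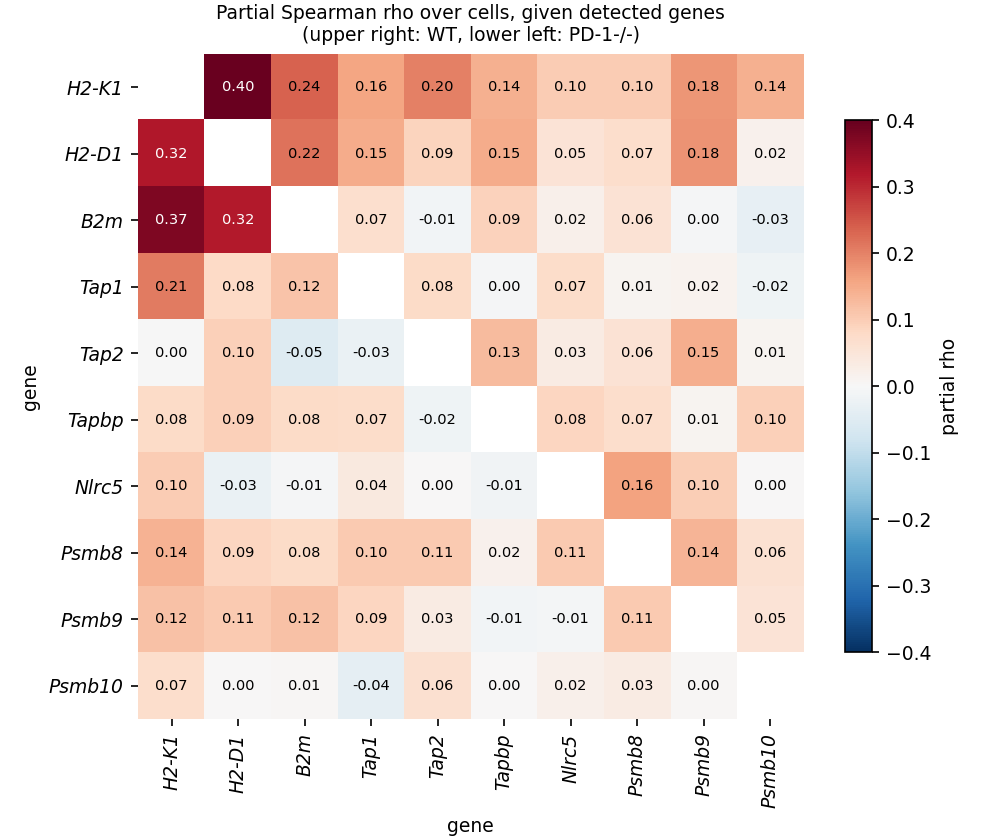
Partial Spearman rho over cells, given the number of detected genes, for each pair of the 10 genes, with WT above and PD-1-/- below the diagonal. The block of H2-K1, H2-D1 and B2m stands out on both plates, from 0.22 to 0.40, and most other fields are below 0.2.

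The relation to interferon was read from a score, the mean log2(RPKM + 1) over 43 genes known to answer interferon gamma or type I interferon, none of them among the 10. All 10 genes had a rho above 0 with the score in WT cells and 9 of 10 in PD-1-/- cells, where 50.4% and 50.2% of the 6706 background genes, found in at least 10% of cells, were above 0. Above 0 on both plates were 9 of the 10, against 27.3% of background genes. The values were small, with a median of 0.08 in WT (0.05 for B2m to 0.13 for Tap1) and 0.10 in PD-1-/- cells (-0.03 for Psmb10 to 0.14 for Tapbp). At a rho of 0.1, a limit chosen after the values were seen, stood 3 of the 10 genes in WT and 4 in PD-1-/- cells, against 4.34% and 3.43% of background genes. On both plates at once, H2-K1, Tap1 and Tapbp reached it, against 0.522% of background genes. None of the 10 reached 0.2, which 0.0746% and 0.0149% of background genes did. Averaged over the plates, Tap1 had the largest rho, 0.12, at the percentile 99.6 of the background, and Psmb10 the smallest, 0.02, at the percentile 66.3. Most background genes were found in fewer than 50% of cells and each of the 10 in more, so the percentiles compare genes unlike in detection. Values of this size are a description of these cells and no more.

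The transporter gene Tap1 stood at 0.13 in WT and 0.12 in PD-1-/- cells, H2-K1 at 0.11 and 0.12, Tapbp at 0.10 and 0.14, Tap2 at 0.10 and 0.10, and H2-D1 at 0.08 and 0.11. Nlrc5 stood at 0.07 and 0.09, Psmb9 at 0.09 and 0.06, Psmb8 at 0.07 and 0.03 and B2m at 0.05 and 0.08. With the interferon gamma genes alone the average was 0.12 for Tap2, 0.11 for H2-K1, 0.04 for Nlrc5 and 0.03 for B2m, and with the type I genes alone it was -0.01, 0.05, 0.10 and 0.08. Between the mean log2(RPKM + 1) of the 10 genes and the interferon score, rho was 0.18 in WT and 0.15 in PD-1-/- cells. Without the adjustment for detected genes it was 0.34 and 0.38, and both scores moved with that number, at 0.51 and 0.39 in WT and 0.58 and 0.48 in PD-1-/- cells.

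**Figure D5:**
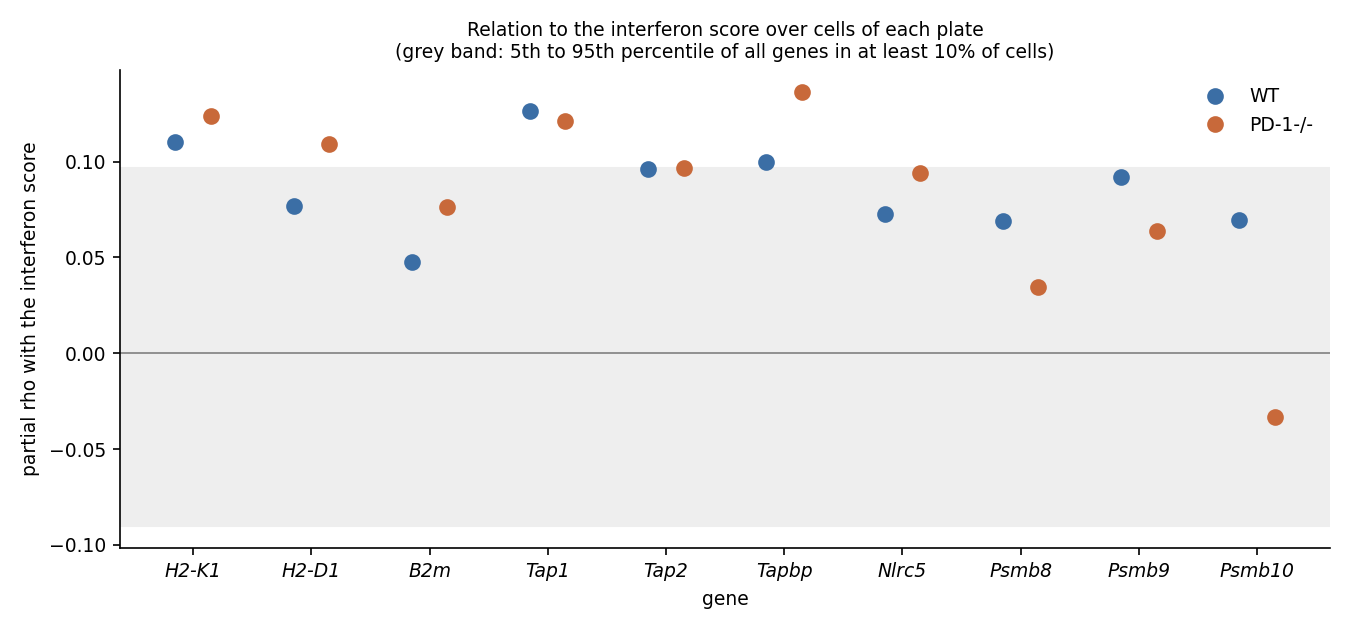
Partial Spearman rho of each gene with the interferon score over WT (blue) and PD-1-/- (orange) cells, with the central range of background genes as a grey band. Tap1, H2-K1 and Tapbp lie above the band on both plates, and Psmb10 lies below 0 in PD-1-/- cells.

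Cells were also split by whether a single gene was found in them. Here and in the split by CD3 chain reads, the compared genes are those whose mean reached 1 RPKM in either set of cells. No share was computed for genes as abundant as most of the 10, so a count of 0 beside these shares does not show unusual stability. Between cells with and without Nlrc5, 0 of the 9 remaining genes were past 1.5-fold on either plate, where 13.6% of compared genes were at least 1.5-fold higher and 23.8% lower in WT, and 14% and 20.4% in PD-1-/- cells. Psmb8 had the largest log2 ratio with Nlrc5 on both plates, 0.35 (805.1 against 633.5 RPKM) in WT and 0.27 (845.9 against 700.2 RPKM) in PD-1-/- cells. Between cells with and without Ifng, the gene of interferon gamma, found in 93 WT cells and 31.1% of PD-1-/- cells, 0 of the 10 genes were past 1.5-fold, where 16% of compared genes were higher and 25.2% lower in WT, and 12.9% and 23.3% in PD-1-/- cells. Nlrc5 stood highest there, at 0.33 in WT and 0.58 in PD-1-/- cells. Irf1, the interferon-induced factor that binds response elements of class I genes, also gave 0 of 10, where 18.6% of compared genes were higher and 22% lower in WT, and 16.3% and 22.6% in PD-1-/- cells.

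Cells with CD3 chain reads were set against the others in the same way. In WT cells with such reads Nlrc5 was at 45.9 RPKM and in the others at 23.6 RPKM, a log2 ratio of 0.93. The intervals of its share overlapped, at 56.9% (44.04 to 69.2) with such reads and 49.8% (43.98 to 55.7) without. Nlrc5 was the 1 of 10 genes at least 1.5-fold higher, where 30.3% of compared genes were higher and 19% lower. In PD-1-/- cells Nlrc5 was at 37.5 against 34.05 RPKM, and 0 of the 10 genes were past 1.5-fold, where 17.6% of compared genes were higher and 23% lower.

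The interferon genes themselves were found unevenly. Of the 24 type I genes the median share was 5.51% of cells, led by the nucleic acid sensors Zbp1 (36.7% in WT and 37.2% in PD-1-/-) and Ddx58 (33.1% and 27.9%) and the transcription factor Irf7 (26.7% and 27.05%). Of the 19 interferon gamma genes it was 21.9%, with Irf1 (70.8% and 69.1%) and the feedback inhibitor Socs1 (50.3% and 60.1%) among the largest. Among the 13 signaling genes, the largest shares were those of the receptor gene Ifngr1 (98.9% and 99.7%) and the kinase gene Jak1 (90.8% and 90.2%). The type I genes had a median log2 ratio of -0.75 between the plates, and 14 of 24 were at least 1.5-fold lower in PD-1-/- cells, where 14% of all compared genes were. None of the 10 presentation genes was. With a median share of 76.7% of cells for the 10 against 5.51% for the type I genes, these counts are not alike. The intervals of the share of cells overlapped between the plates for all 24 type I genes. On the difference of mean log2(RPKM + 1), these genes ran from -0.33 for Oas1a to 0.16 for Ifitm3. Rsad2, with the lowest log2 ratio of means, -2.12, was found in 7 WT and 4 PD-1-/- cells and stood at -0.08 on that measure. Of the interferon gamma genes, 2 were at least 1.5-fold higher and 4 lower, with a median log2 ratio of -0.06. Of the signaling genes, 1 was lower, the receptor gene Ifngr2, which was found in 8 cells in all.

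The difference in the type I genes was smaller without a few cells rich in them. These cells were picked by the same genes, so the drop does not show what the difference rests on, which was not tested. A set of 10 WT cells (2.78%, 1.34 to 5.05) and 6 PD-1-/- cells (1.64%, 0.604 to 3.53) had 8 or more of the 24 type I genes, a limit chosen after the values were seen, and held 30.03% and 13.99% of the summed RPKM of the list. Without them, 4 of 21 compared type I genes were at least 1.5-fold lower and the median log2 ratio was -0.17. With a pseudocount of 10 RPKM in place of 1, 4 of the 24 were past it and the median was -0.29. In the 10 WT cells, H2-K1 had a median of 5081 RPKM (4178 to 6958) against 5200 in the other WT cells, and B2m 9179 (7671 to 14761) against 9330. In the 6 PD-1-/- cells, H2-K1 had a median of 6927 RPKM (4997 to 9321) against 5079 in the others, and B2m 11846 against 9185. Tapbp had a median of 492.5 against 268.5 RPKM in WT and 618.6 against 239.02 RPKM in PD-1-/- cells. The median of Tap1 lay lower in these WT cells, at 77.2 against 106.2 RPKM, but its mean lay higher, at 229.8 against 158.4 RPKM. In the PD-1-/- cells its median was higher, at 434.5 against 130.4 RPKM. By mean, H2-K1, H2-D1 and B2m also lay higher in these WT cells, so the direction hangs on the measure. The median of Psmb8 stood at 430.2 against 629.6 RPKM in WT and 1076 against 707.1 RPKM in PD-1-/- cells. Tap2 stood at 124.1 against 102.3 RPKM in WT and 25.8 against 100.9 RPKM in PD-1-/- cells. Psmb10 stood at 201.7 against 160.5 RPKM and 103.8 against 141.5 RPKM, and Nlrc5 at 6.42 against 0.425 RPKM and 0.209 against 1.05 RPKM. H2-D1 and Psmb9 had medians of 4690 and 359.6 RPKM against 5047 and 206.4 in WT, and 6002 and 290.1 RPKM against 4974 and 219.9 in PD-1-/- cells.

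The genes most like the 10 were sought by their partial rho with the mean log2(RPKM + 1) of the 10, taking the smaller value of the plates, among 3987 genes in at least 20% of cells. Among the 10 with the largest values were Ctsw, the cathepsin of cytotoxic lymphocytes (0.16), the TNF family gene Ltb (0.15), the interferon-inducible Ifi203 (0.15), H2-T23 (0.15), the leukocyte actin-binding genes Lsp1 (0.15) and Coro1a (0.14), the serpin gene Serpina3g (0.14), Commd3 (0.14) and Cd7 (0.14), where 95% of these genes lay below 0.06 and 32 genes reached 0.1. The list is not firm, since in rows A to H alone 1 of the 10 was again among the first 10 and in rows I to P alone 3 were.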

How the data were processed

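Single NK cells on 2 plates of 384 wells were measured by SMART-SEQ2. The authors deposited RPKM per gene and well, normalized to gene length and mapped reads, with no further scaling. The submitters' processing notes name TopHat, Cufflinks and the builds mm9 and mm10, without roles or versions. A build for the RPKM files is not given in the sources used here, and coordinates are those of RefSeq on GRCm38.p6. The authors' raw counts were not used. All columns were used.

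Wells with 1000 to 3500 genes above 0 were kept, counting genes above 0 in at least 3 wells. Groups are the labelled genotypes, each the pooled tumors of 3 mice, so no test was made. Kept were 360 WT and 366 PD-1-/- cells. No doublet caller was run on sorted wells. For shares, Clopper-Pearson 95% intervals were computed. Between genotypes, the log2 of the ratio of mean RPKM plus a pseudocount of 1 was taken for genes whose mean reached 1 RPKM on either plate. Correlations are partial Spearman correlations within a plate, given the number of detected genes. RPKM values of a gene rose in steps of 1 read, from which whole reads were recovered for 11323 of 11700 genes found in at least 8 wells. Of 821669 low values, 93.4% were whole within a tolerance of 0.0003 per read, which was wider at the lowest counts. The steps were fitted to the same values, so this share is no independent check. The recovered reads served for depth and thinning. Reads are not independent molecules, so intervals cover counting error only. Functions were tested on simulated data.

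The genes and lists were chosen with earlier results of these data known. Named are all 10 genes, of each list the 3 genes with the largest shares of cells and those a result turns on, and the 10 genes most like the 10, with 1 gene that these rules name not reported here. Splits by Irf1, Nlrc5, Ifng and CD3 chains, the motifs, and the set of cells with many type I genes were chosen after values were seen. The 20 alternatives changed the cells, rows, scaling, depth, limits, pseudocount, adjustment and score. Python 3.11.15, numpy 2.4.6, pandas 2.3.3, scipy 1.17.1 and matplotlib 3.10.9 were used.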

Additional observations from a re-analysis of the deposited data

How the results depend on the processing

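No paired analysis was possible because each genotype is 1 pool and no test was made. Of the 20 alternatives, 9 bear on shares of cells, and under these the number of the 10 genes whose shares did not overlap stayed at 0 and the median number of genes per cell at 8 on both plates. The median log2 ratio over the 10 genes moved from -0.02 to 0.10 in plate rows A to H alone, and lay between -0.05 and 0.10 over the 11 alternatives that bear on it. A lower limit of 0.32 on the log2 ratio gave 1 gene past it, Nlrc5, in place of 0. The median rho between pairs lay between 0.06 and 0.08, and that with the interferon score between 0.05 and 0.14. Of the 10 genes most like the presentation genes, 5 were shared without cells with CD3 chain reads, 1 in rows A to H alone, 3 in rows I to P alone, 6 without rows A and B, 6 after thinning to 100000 reads, 4 without adjustment for detected genes and 1 with Pearson correlations on log2(RPKM + 1). Of 110 log2 ratios of single genes under alternatives 92 moved by less than 0.1, and of 180 shares all but 18 stayed inside the main interval. On the difference of mean log2(RPKM + 1), Tap1 stood at 0.47 and Psmb10 at -0.37. The cause of these moves was not tested. Depth limits what an absence means: under 100000 recovered reads lay behind 18 WT and 13 PD-1-/- cells.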
